A study of Arabidopsis thaliana with 8 samples.

Results

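Hsp70-2 (AT5G02490) encodes a protein of the HSP70 family of molecular chaperones in *Arabidopsis thaliana*. Genes were sought whose symbol begins with HSP, HSF, HSC70 or BIP, among probe sets that the platform annotation gives to a single gene. Of 13356 genes named in this way, 1 was found, Hsp70-2, and it had 1 probe set. The search therefore returned no heat shock factor, no small heat shock protein and no HSP90 gene, and the values below are those of 1 HSP70 gene, not of the family. The RefSeq annotation holds 48 genes whose symbol fits the same rule. Another 2 of them, HSP70 and HSFB4, were named only in the study's lists of genes that responded on these arrays, and 1 probe set was left out because it stands for several genes. The remaining genes of these 48 were not analysed here. Some heat shock genes under other symbols are given below as context.

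RNA from whole light-grown Columbia seedlings was hybridised to 8 Affymetrix ATH1 arrays in 4 groups of 2. Wild-type seedlings (WT, Col-0) and *yucca* seedlings, which overproduce auxin, were immersed for 2.5 h in half-strength medium with 1 µM brassinolide (BL, the most active brassinosteroid; BR) or in the medium alone (mock). The labels give an age of 10 days, and the methods give a slightly younger age. Both arrays of a group came from separate biological samples according to the methods, and each genotype was a single line. The comparisons ask how these transcripts respond to BR in each genotype, and how they differ in seedlings with raised auxin. Because 2 arrays stand behind each mean, the precision is set by the number of arrays.

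The genotypes were deposited on different scales. The median deposited intensity was 86.8 to 90.1 on WT arrays and 44.7 to 46.4 on *yucca* arrays. Pairs of arrays of the same genotype shared 19 to 87 exactly equal intensities, and no WT array shared one with a *yucca* array. The values were therefore brought to a common distribution by quantile normalization over the 8 arrays before any comparison. Genotype and the set of arrays normalized together cannot be told apart. The median log2 difference between *yucca* and WT after mock over all probe sets was -0.87 as deposited and -0.01 after normalization. Pearson's r between replicate arrays was 0.994 to 0.998 over probe sets. Of 10 genes written down as markers of shoot or root, 4 were named, all of the root. Shoot tissue could thus not be checked.

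HSP70 chaperones bind unfolded stretches of other proteins and release them in a cycle of ATP binding and hydrolysis. J-domain proteins start the cycle by stimulating hydrolysis, nucleotide exchange factors complete it, and HOP proteins pass clients from HSP70 to HSP90. In plants, heat and other conditions that unfold proteins raise the transcripts of many of these genes through heat shock factors, while some HSP70 genes are also expressed without stress.

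Hsp70-2 transcripts were higher in *yucca* than in WT and differed little between BR and mock seedlings. In mock-treated WT, the normalized intensity was 109.1 on one array and 117.5 on the other. In BR-treated WT, the arrays gave 114.3 and 117.6. In mock-treated *yucca*, they gave 348.1 and 282.7. In BR-treated *yucca*, they gave 337.3 and 252.6. All 4 *yucca* arrays were above all 4 WT arrays, and within each genotype the BR and mock arrays overlapped.

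The group means, in order, were 315 ± 46.2 in mock-treated *yucca*, 295 ± 59.9 in BR-treated *yucca*, 116 ± 2.35 in BR-treated WT and 113 ± 5.91 in mock-treated WT (SD, n = 2 each). The upper pair of neighbours did not differ beyond its spread, and neither did the lower pair. Between the pairs lay a gap: the lowest *yucca* array was 2.15 times the highest WT array. The replicates of *yucca* lay further apart than those of WT. Replicate 1 exceeded replicate 2 by 0.30 on the log2 scale in mock-treated *yucca* and by 0.42 in BR-treated *yucca*. The median absolute difference between those replicates over all probe sets was 0.14 and 0.12. In WT, the replicates of Hsp70-2 differed by -0.11 after mock and by -0.04 after BR.

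The rank of a probe set on its own array does not depend on the scale of that array. Quantile normalization assigns values by this rank, so the ranks are no separate check of the normalized values. Hsp70-2 exceeded 60.7% to 62.3% of probe sets on WT arrays and 78.5% to 84.0% on *yucca* arrays. Its deposited intensity was 1.72 to 1.86 times the array median in WT and 3.94 to 5.49 times in *yucca*. On the deposited scale itself the genotypes were close. The WT arrays gave 154, 168, 157 and 166, and the *yucca* arrays gave 255, 199, 245 and 176, so that the lowest *yucca* array was 1.05 times the highest WT array.

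**Figure D1:**
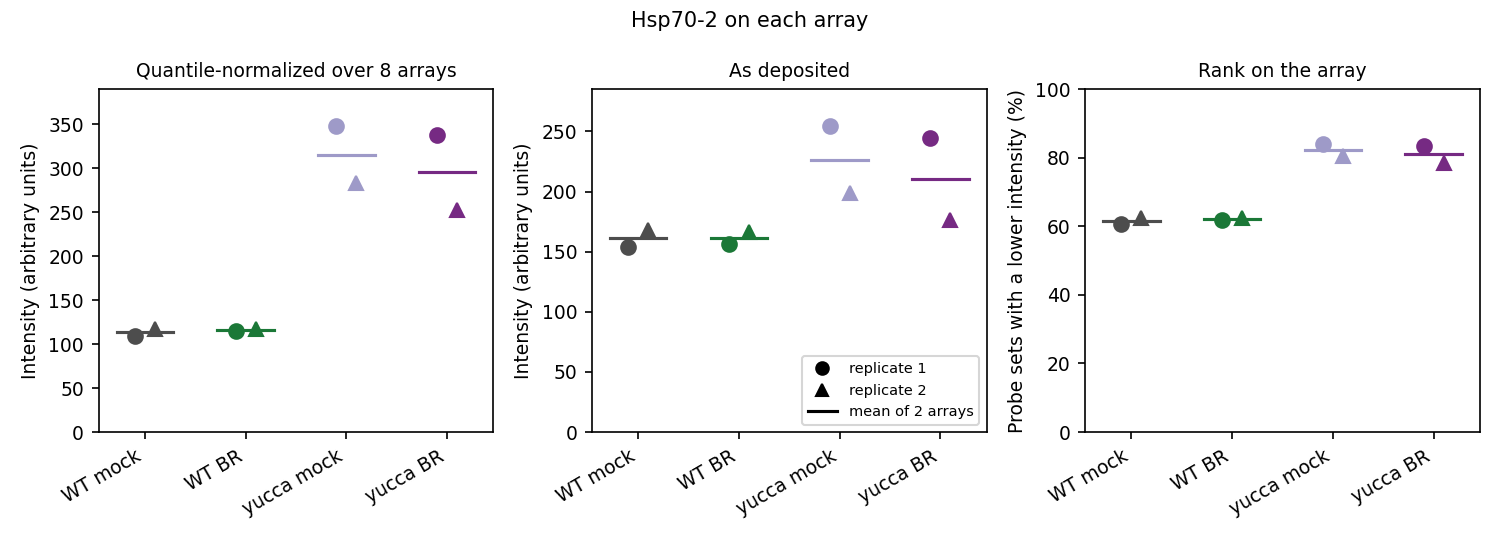
Hsp70-2 on each of the 8 arrays, as quantile-normalized intensity (left), deposited intensity (middle) and percent of probe sets with a lower intensity on the same array (right). Circles and triangles are replicates 1 and 2 and bars are means of 2 arrays; the *yucca* arrays lie above the WT arrays in all 3 panels, by the narrowest margin on the deposited scale.

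Differences were tested with limma on log2 normalized values over all 22746 probe sets, and a transcript was called when its Benjamini-Hochberg adjusted p was under 0.10 and its log-odds of change, B, was above 0. After mock, Hsp70-2 was called higher in *yucca* than in WT. The log2 difference was 1.47 (SE 0.15, 95% interval 1.13 to 1.81), a 2.77-fold higher level (2.20 to 3.50), with a limma adjusted p of 8.19e-05. In this comparison 8.56% of all probe sets were called higher and 8.79% were called lower. The log2 difference of Hsp70-2 exceeded that of 98.2% of probe sets.

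The comparison between BR-treated seedlings used the other 4 arrays. Hsp70-2 was again called higher in *yucca*, by 1.33 on the log2 scale (95% interval 1.00 to 1.67), or 2.52-fold, with a limma adjusted p of 0.00016. Here 8.26% of probe sets were called higher and 8.56% lower. On the deposited values neither difference was called: the log2 differences were 0.48 after mock (limma adjusted p = 0.02) and 0.36 after BR (limma adjusted p = 0.0634), where the median over all probe sets was -0.87 and -0.86.

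The 4 root markers were EXPA7, SHV2, RHS13 and PRP3, all known from root hairs or the root hair zone. SHV2, RHS13 and PRP3 were named only in the study's list of genes lowered by auxin, so for auxin-overproducing seedlings they are no neutral check of the tissue. Of the 4, SHV2 was called lower in *yucca* after mock, by a log2 difference of -0.81 (limma adjusted p = 0.000885), and none was called after BR. The others differed after mock by -0.82 for EXPA7, -1.47 for RHS13 and -2.29 for PRP3, with B below 0. The summed normalized intensity of the 4 was 1162 to 1428 on WT arrays and 286 to 763 on *yucca* arrays, with no overlap, and none was at 0. Replicate 1 of *yucca*, where Hsp70-2 was higher, also had the higher sum in each treatment. The part of tissue makeup in the difference of Hsp70-2 was not tested, and fewer cells of a type cannot be told apart from less RNA per cell in whole seedlings.

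Hsp70-2 was not called for BR in either genotype. In WT, the log2 difference between BR and mock was 0.03 (95% interval -0.30 to 0.37, limma adjusted p = 0.99), in a comparison that called 2.21% of all probe sets. In *yucca*, it was -0.10 (95% interval -0.44 to 0.23, limma adjusted p = 0.80), where 3.64% were called. The BR response of *yucca* minus that of WT was -0.14 (95% interval -0.61 to 0.34, limma adjusted p = 0.909), and this difference was called for 0.044% of probe sets. Changes within these intervals were not detectable with 2 arrays per group. The intervals leave out a change by BR of more than 0.44 in either direction on the log2 scale.

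**Figure D2:**
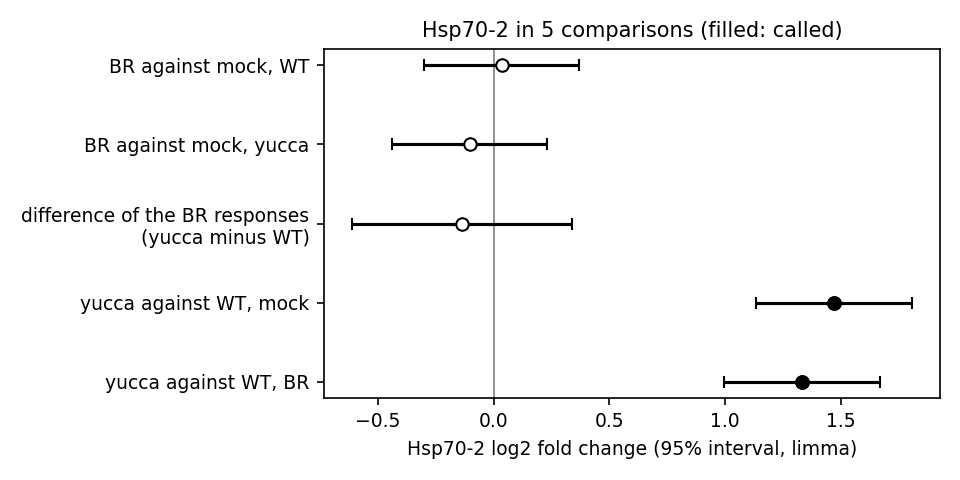
Log2 fold change of Hsp70-2 in 5 comparisons with 95% intervals from limma (n = 2 arrays per group); filled points were called. Both differences between *yucca* and WT lie above 0 (1.47 and 1.33), and the 2 BR responses and their difference include 0.

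Heat stress genes and cytosolic co-chaperones that work with HSP70 and HSP90 were read as context from a list of 24 loci, of which 10 had a named probe set. After mock, 5 of the 10 were called higher in *yucca* and 0 lower, where 8.56% of all probe sets were called higher and 8.79% lower. The median log2 difference of the 10 was 1.31, against -0.01 for all probe sets. After BR, 5 were again called higher and 0 lower (8.26% and 8.56% of all probe sets), with a median of 0.95 against -0.01, and all 5 were called in both comparisons. The other 5 were not called in either. On the deposited scale the list held 5 higher and 4 lower after mock (median 0.35). After BR it held 4 higher and 4 lower (median 0.06). On that scale 265 of all 22746 probe sets were called higher and 15356 lower after mock, and 204 and 15352 after BR. The median over all probe sets was -0.87 after mock and -0.86 after BR.

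Fes1A, which interacts with cytosolic HSP70 and is needed for acquired heat tolerance, was called higher in *yucca* after both treatments. Its normalized intensity was 76.6 and 82.4 in mock-treated WT, 81.0 and 83.5 in BR-treated WT, 807 and 820 in mock-treated *yucca*, and 655 and 462 in BR-treated *yucca*. The difference between *yucca* and WT was 10.2-fold after mock (limma adjusted p = 1.77e-06) and 6.68-fold after BR (limma adjusted p = 5.13e-06). No *yucca* array overlapped a WT array.

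AT5G48570, which RefSeq also lists as ROF2, a prolyl isomerase of the FKBP type that binds HSP90, was 11.8-fold higher after mock and 6.65-fold higher after BR. Hop3, a HOP co-chaperone that links HSP70 to HSP90, was 5.87-fold and 2.82-fold higher. Its WT intensities were low, at 16.3 to 21.0, and exceeded 26.3% to 31.7% of probe sets. Its call after BR was lost under 5 alternatives, among them leaving out WT BR replicate 1 (1.47 on the log2 scale) or replicate 2 (1.51). SGT1A, an HSP90 co-chaperone known from disease resistance, was 4.47-fold and 3.31-fold higher, and AT2G20560, for which no name was held, was 7.86-fold and 4.88-fold higher. The WT intensities of AT2G20560 were also low, at 21.8 to 27.7, and exceeded 32.4% to 36.4% of probe sets. Those of AT5G48570 were 30.1 to 37.3, above 37.7% to 41.1%.

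Other co-chaperones on the list did not pass. AT4G02450 had the lowest log2 difference of the list, at -0.40 after mock (limma adjusted p = 0.0356, B below 0) and -0.42 after BR (limma adjusted p = 0.0285, B below 0). AT3G12050 differed by 0.19 after mock (limma adjusted p = 0.121). The HOP genes Hop1 and Hop2 differed by -0.19 and 0.37 on the log2 scale after mock (limma adjusted p = 0.166 and 0.00808, B below 0). HSA32, a heat-induced protein needed to keep acquired heat tolerance, differed by 0.46 (limma adjusted p = 0.0258, B below 0). The 3 HOP genes thus did not share a value: the difference of Hop3 was 2.55 in the same comparison.

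No gene of the heat stress list was called for BR in WT or in *yucca*, or for the difference of these responses, and with 2.21%, 3.64% and 0.044% of all probe sets called, none of 10 is near the background. The median log2 response to BR was 0.12 in WT and -0.19 in *yucca*. On the second BR-treated *yucca* array, all 5 genes called between genotypes had their lowest *yucca* value, at 462 for Fes1A, 179 for AT5G48570, 98.6 for AT2G20560, 43.6 for Hop3 and 691 for SGT1A. The same array held the lowest *yucca* value of Hsp70-2. Without *yucca* BR replicate 1, that array alone stood for its group. The log2 response to BR in *yucca* was then -0.82 for Fes1A and -1.18 for Hop3. The BR response of *yucca* minus that of WT was -0.87 for Fes1A, -1.48 for Hop3 and -1.23 for AT5G48570. With 1 array left in that group, only the sizes are given here.

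The endoplasmic reticulum (ER) has its own HSP70, BiP, whose genes were not among the named probe sets. Of 17 loci listed for ER folding and the unfolded protein response, 5 were named. After mock, 2 were called higher in *yucca*, 2 lower and 1 was not called, against 8.56% higher and 8.79% lower over all probe sets. On the deposited scale 0 were higher and 3 lower after mock, and 0 higher and 2 lower after BR. Of all 22746 probe sets, 265 were called higher and 15356 lower as deposited after mock, and 204 and 15352 after BR. BZIP28 and BZIP60, membrane-bound transcription factors of the unfolded protein response, were both higher by 0.83 on the log2 scale (limma adjusted p = 0.000451 and 0.000127). The call of BZIP28 was lost without WT mock replicate 1 (0.82) or replicate 2 (0.84) or *yucca* mock replicate 1 (0.75). CRT1b, a calreticulin of the ER, was lower, with a log2 difference of -0.96 (limma adjusted p = 8.53e-05), as was ATERDJ3B, a J-domain protein of the ER, at -0.74 (limma adjusted p = 0.000195).

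After BR, 3 of these 5 were called higher and 2 lower (8.26% and 8.56% of all probe sets), with log2 differences of 0.71 for BZIP28, 0.61 for BZIP60, -0.86 for CRT1b and -0.72 for ATERDJ3B. The addition was AT5G07340, for which no name was held, at 0.72 (limma adjusted p = 0.00141). None of these 3 higher calls held throughout: with only the compared groups fitted, or without WT BR replicate 1 (0.70 for BZIP28, 0.60 for BZIP60, 0.58 for AT5G07340) or *yucca* BR replicate 1 (0.57, 0.53 and 0.81), all 3 were lost. Those of BZIP28 (0.73) and BZIP60 (0.61) were also lost without WT BR replicate 2, that of AT5G07340 without *yucca* BR replicate 2 (0.63), and those of BZIP28 and AT5G07340 without either WT mock array. In WT, AT5G07340 was also the 1 listed gene called for BR, with a log2 response of -0.64 (limma adjusted p = 0.0228). That call had a B of 0.09 and was lost under 13 alternatives, among them leaving out either mock array of WT (-0.72 without replicate 1, -0.55 without replicate 2) or the first BR array of WT (-0.50). In *yucca* no ER gene was called for BR. Of all probe sets, 2.21% were called for BR in WT and 3.64% in *yucca*. So few calls among 5 genes do not set the list apart from this background. On the deposited scale BZIP28, BZIP60 and AT5G07340 changed sign between genotypes, while Fes1A, AT5G48570, AT2G20560 and SGT1A were still called higher after both treatments.

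**Figure D3:**
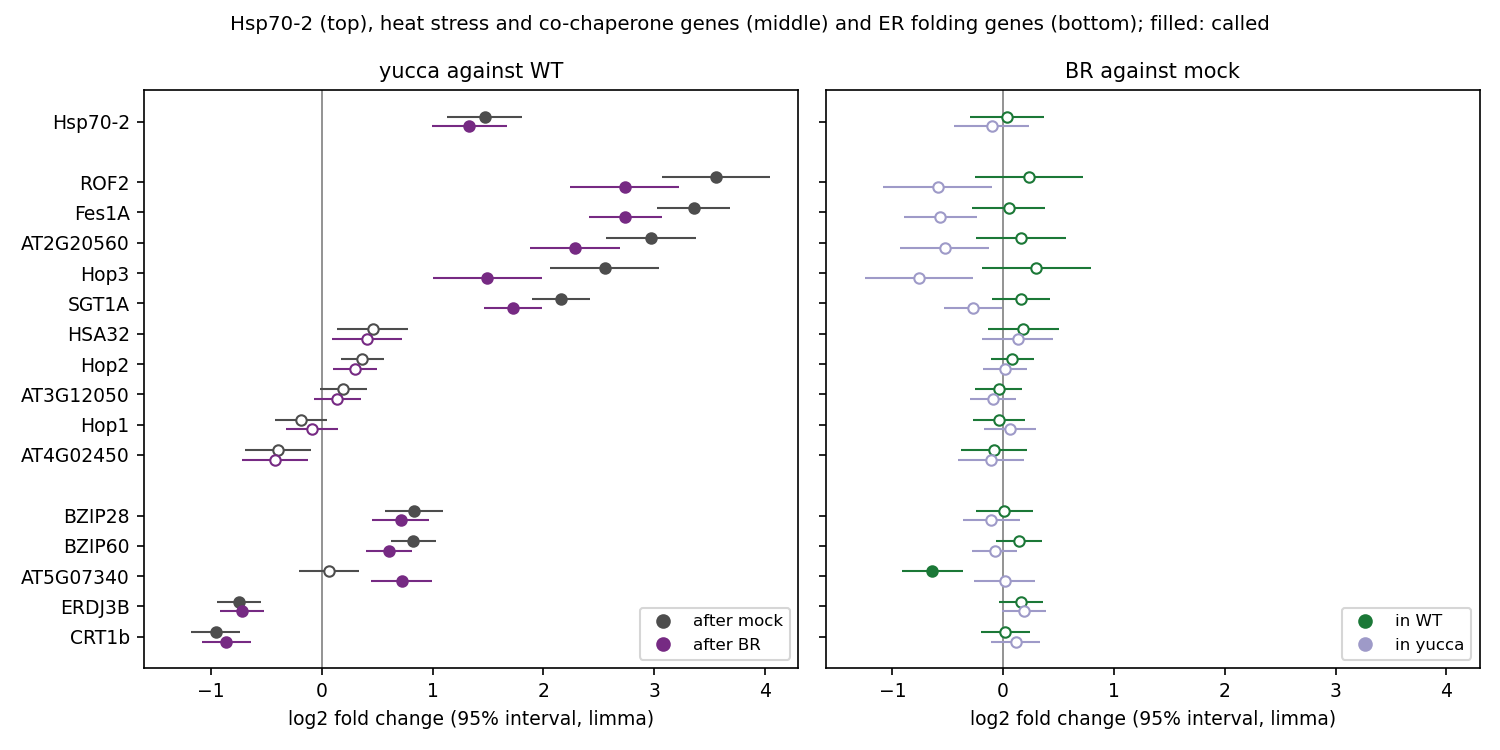
Log2 fold change with 95% limma intervals of Hsp70-2, 10 heat stress and co-chaperone genes and 5 ER folding genes, between *yucca* and WT (left) and between BR and mock (right); filled points were called. In the left panel Hsp70-2 and 5 co-chaperone genes lie between 1.33 and 3.55, while in the right panel only AT5G07340 in WT was called.

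A list of 17 loci for organelle chaperonins and heat shock family members under other names gave no named probe set. After the values had been seen, 8 heat shock or chaperonin genes were found by name outside the lists, including HSP70 and HSFB4. HSP70 (AT3G12580), a cytosolic HSP70 whose transcript is raised by heat, was the closest relative of Hsp70-2 by name. The study had listed it as raised by BR on these arrays, so its response to BR is not independent evidence.

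In mock-treated WT, HSP70 had a normalized intensity of 175 and 181, and in BR-treated WT 260 and 282. In mock-treated *yucca* it had 966 and 885, and in BR-treated *yucca* 795 and 457. All *yucca* arrays were above all WT arrays, and BR and mock did not overlap within either genotype. The difference between genotypes was 2.38 on the log2 scale after mock, which was called (limma adjusted p = 3.85e-05), and 1.16 after BR, which was not (limma adjusted p = 0.00217, B = -0.09). The BR response was 0.60 in WT (limma adjusted p = 0.241) and -0.62 in *yucca* (limma adjusted p = 0.132). Neither was called in the main fit here, whereas the study listed HSP70 as raised by BR in WT. Without *yucca* BR replicate 1, the response in *yucca* was -1.02, with 1 array left in that group. The response in WT was called when either BR-treated *yucca* array was left out or when the WT arrays were fitted alone, and the difference between genotypes after BR was called without *yucca* BR replicate 1 (0.76) or replicate 2 (1.55). Hsp70-2 had BR responses of 0.03 and -0.10, and no array changed its calls.

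HSFB4, the 1 heat shock factor with values here, did not differ between genotypes beyond its spread, at -0.02 after mock and 0.01 after BR. Its log2 response to BR was -0.59 in WT (limma adjusted p = 0.0657) and -0.56 in *yucca* (limma adjusted p = 0.0463). Neither passed the B criterion. The study had listed HSFB4 as lowered by BR on these arrays, and its probe set was named only through that listing. The response of HSFB4 to BR in WT is therefore not independent evidence. Of the other 6, ATHSP22.0, CLPB2, ATJ1, Cpn60beta2, Cpn60beta3 and Cpn60beta4, 1 was called in a comparison. Of all probe sets, 8.56% were called higher and 8.79% lower in *yucca* after mock, and 8.26% and 8.56% after BR. For BR, 2.21% were called in WT, 3.64% in *yucca* and 0.044% for the difference of these responses. A single call among 6 genes does not set them apart from this background. Cpn60beta3, a subunit of the chloroplast chaperonin, was lower in *yucca* after mock, with a log2 difference of -0.76 (limma adjusted p = 0.00045), a call lost without WT mock replicate 1 (-0.72) or 2 (-0.79) or *yucca* mock replicate 1 (-0.72). ATHSP22.0, a small heat shock protein, differed by -0.15 after mock (limma adjusted p = 0.347).

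Among 13512 other probe sets with a single named gene, the 5 whose log2 values followed those of Hsp70-2 most closely over the 8 arrays were AT1G35940 and AT1G11960 (Pearson's r = 0.999 each), BZIP28 (0.998), AT1G21670 and AT5G39670 (0.997 each). These are descriptions over 8 arrays that fall into a lower and a higher genotype. The sizes of the differences were unlike: the log2 difference between *yucca* and WT after mock was 0.25 for AT1G35940, 0.83 for BZIP28, 1.40 for AT1G11960, 1.88 for AT1G21670 and 2.21 for AT5G39670, with 1.47 for Hsp70-2. AT1G35940 was also dim, with means of 6.75 in mock-treated WT and 8.05 in mock-treated *yucca*. The r with Hsp70-2 was 0.956 for HSP70, 0.989 for Fes1A and -0.993 for CRT1b.

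In the RefSeq annotation, Hsp70-2 lies on chromosome 5 between AT5G02480 and HSC70-1 (AT5G02500), another cytosolic HSP70 gene. No probe set was named for HSC70-1. AT5G02480 differed by 0.57 after mock (limma adjusted p = 0.00564) and by 0.46 after BR (limma adjusted p = 0.0154), and was not called in either. HSP70 genes are alike in sequence, and hybridisation of other HSP70 transcripts to the probe set of Hsp70-2 was not tested.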

How the data were processed

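Total RNA was measured on ATH1 arrays, 2 per group. The authors background-corrected, normalized and summarised probes by rma in Bioconductor, and the deposited values are intensities on a linear scale. Versions are not given in the sources used here. Intensities were taken to log2 and quantile-normalized over the 8 arrays after 64 control probe sets were set aside. The fit of 4 group means used limma 3.58.1 (R 4.3.3; eBayes, proportion 0.01; 4 residual degrees of freedom), and p-values were adjusted over 22746 probe sets. The procedure was tested on simulated data. Genes were named from the platform annotation (13513 probe sets with 1 gene, 503 with several) and, for 485 more, from the study's gene tables; 8245 had no name.

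The member, the lists and the tests were chosen with earlier results of these data known. Named with values were the member, listed genes called in any comparison, and the 5 probe sets most alike; others named were chosen after their values were seen. Alternatives were 9 other settings and leaving out each of the 8 arrays.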

Additional observations from a re-analysis of the deposited data

Results flagged for a closer look

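For 4 of the 24 genes with values here (Hsp70-2, 15 listed genes and 8 found by name), every BR-treated array lay above every mock array in WT and below every mock array in *yucca*. The same pattern was found for 610 of all 22746 probe sets (2.68%), and the reverse pattern for 549 (2.41%) and for 0 of the 24 genes. The BR response of *yucca* minus that of WT was -0.82 on the log2 scale for AT5G48570 (limma adjusted p = 0.507), -1.06 for Hop3 (limma adjusted p = 0.356), -0.43 for SGT1A (limma adjusted p = 0.514) and -1.22 for HSP70 (limma adjusted p = 0.26). None passed the adjusted threshold. HSP70 had been selected in the study on these arrays. The second BR-treated *yucca* array held the lowest *yucca* value of all 4. Without *yucca* BR replicate 1, that array alone stood for its group and was assumed to vary like the other groups. The difference was then -1.23 for AT5G48570, -1.48 for Hop3, -1.62 for HSP70 and -0.55 for SGT1A. Hsp70-2, at -0.14, was not among these genes: its BR and mock arrays overlapped within each genotype.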

How the results depend on the processing

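Hsp70-2 kept its sign between *yucca* and WT under all 17 alternatives after mock (0.48 to 1.62) and after BR (0.36 to 1.54), and its call under all but the values as deposited, where 0 of 1 member was called in either comparison (0.48 and 0.36 on the log2 scale). On that scale 265 probe sets were called higher and 15356 lower after mock, against 1948 and 2000, and 204 and 15352 after BR, against 1879 and 1946. With array medians set equal, which moves the median of all probe sets to 0.11, 2448 were higher and 1631 lower after mock and 2294 and 1625 after BR. As deposited, the signs turned for BZIP60 (-0.14 after mock, -0.35 after BR), BZIP28 (-0.14, -0.27) and AT5G07340 (-0.92, -0.26). Leaving out 1 array moved the BR response of Hsp70-2 from -0.019 to 0.087 in WT, from -0.31 to 0.105 in *yucca*, and their difference from -0.35 to 0.071, with no call. With the replicate block Hsp70-2 remained called (1.47, limma adjusted p = 9.22e-05; 1.33, limma adjusted p = 0.000175). Deviations from group means correlated at 0.20 between same-numbered WT arrays and 0.37 between same-numbered *yucca* arrays. Across genotypes they correlated at -0.07 to -0.03. The labels give the numbers no shared source, and they were not taken as pairs in the main fit. The block sets 1 replicate effect for both genotypes, so pairing within a genotype was not tested. The block raised the called differences of BR responses from 2 higher and 8 lower to 11 and 28, and leaving out *yucca* BR replicate 1 gave 27 and 159. Without the B criterion 5885 and 6289 were called after mock, and 5922 and 6194 after BR. After BR, the call of Hop3 was lost as deposited (0.64), with 16 added (1.03) and with only the compared groups fitted (1.49). The calls of listed genes lost when 1 array was left out stand beside those genes in the results above. Averaging probe sets of a gene changes nothing for Hsp70-2, which has 1.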
